A study of Homo sapiens with 4 samples.

Results

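The genes described here encode the subunits of Mediator and of its CDK8 kinase module. They are the protein-coding genes of the deposited count table whose symbol is MED followed by a number, with or without a final L, together with CDK8, CDK19 and CCNC. The rule found 33 genes among the 61860 in the table, and all 33 had enough counts to be tested. The cells are labelled HT1376, an established bladder cancer line, grown in MEM with serum. Both groups were treated for 48 h, the control group with an agent labelled WFI (n = 2) and the other group with 1 nM enfortumab vedotin (EV, n = 2). EV is an antibody against the surface protein nectin-4 that carries monomethyl auristatin E, a drug that disrupts microtubules. Total RNA was sequenced after a directional library preparation, and the labels name no genetic change and do not say whether replicates were separate cultures. All p-values below thus rest on sample-to-sample spread that may be technical.

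Mediator is a large complex that carries signals from DNA-bound transcription factors to RNA polymerase II. Its head and middle modules contact the polymerase and the general transcription factors, its tail module receives many activators, and MED14 is the long scaffold that joins these parts. The kinase module binds reversibly and holds the kinase CDK8 or its paralog CDK19, their partner cyclin C (CCNC), MED12 or MED12L, which activates the kinase, and MED13 or MED13L, which links the kinase module to the core. While the kinase module is bound, the core is hindered from binding the polymerase. With 1 contrast in the design, the question is which of these transcripts differed after EV.

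The unit of level is CPM (a gene's count over the TMM-adjusted total of its sample, put on one common scale), so each level is relative to the other RNA of that sample. A gene was called changed when its adjusted p in edgeR's quasi-likelihood test, corrected over all 17465 genes tested, was below 0.05. Totals ran from 19368791 to 20727175 counts per sample. The members took 32318 and 33011 counts in the WFI samples and 24235 and 26447 in the EV samples, and single members ran from 48 counts (MED11) to 3579 counts (MED13L) in a sample. The line's labelled identity was only partly borne out by marker genes. Of 17 urothelial and epithelial markers, 10 could be tested, with 9 called higher and 1 lower in EV. Over all genes tested, 34.5% were called higher and 31.5% lower. KRT5 (0 and 0 counts in WFI), UPK1A (1 and 2) and EPCAM (3 and 6) passed the count filter through the EV samples only. A call of lower was thus not open to these genes. The list summed to 1610 to 1620 CPM in WFI and 3460 to 3500 CPM in EV. Most of this sum came from KRT8, KRT7 and KRT18. KRT8 went from 733 ± 8.56 to 1896 ± 10.5 CPM (SD, n = 2). KRT7 went from 436 ± 7.90 to 750.5 ± 3.69 CPM and KRT18 from 387 ± 3.63 to 725 ± 12.1 CPM. GATA3 had 16 and 19 counts in WFI and rose 11.9-fold. CDH1 had 0 and 1 counts in WFI, KRT19 had 1 and 6, GRHL2 had 0 and 0, and KRT20 had 0 counts in all samples. NECTIN4, the antigen of EV and the marker called lower, had 28 and 29 counts in WFI and 9 and 6 in EV. It passed the count filter through the WFI samples only, so a call of higher was not open to it. Markers of other cell types were low in WFI. The summed level of 12 blood cell markers, which include the red cell genes HBB and HBA1 beside leukocyte genes, was 1.60 to 2.29 CPM in WFI and 43.8 to 43.9 CPM in EV. Of these, 3 were tested and called higher (CD79A, CD14 and ITGAM). CD79A had 2 and 1 counts in WFI and 182 and 155 in EV, and ITGAM had 3 and 2 against 464 and 513. Both passed the count filter through the EV samples only, so a call of lower was not open to them. CD3D, CD3E, MS4A1, LYZ, HBB and HBA1 had 0 counts in WFI, and PTPRC had at most 9 counts in a sample. The 7 fibroblast markers summed to 10.3 to 11.5 CPM in WFI and 10.8 to 13.7 in EV, with LUM at 0 counts in WFI. Of these, 3 were tested and 1 was called higher, FAP, with 3 and 0 counts in WFI and 18 and 33 in EV. FAP passed the count filter through the EV samples only, so a call of lower was not open to it. The 6 endothelial markers summed to 10.9 to 13.7 CPM in WFI and 20.3 to 22.3 in EV, with CDH5 at 0 counts in WFI. The part of such cells in the Mediator values was not tested.

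After EV, 11 of the 33 Mediator genes were called higher, 14 lower and 8 neither. The background was wide, since 66% of all genes tested were called, 34.5% higher and 31.5% lower. The members' shares were 33.3% higher and 42.4% lower, and their median log2 fold change was -0.16, against 0.02 over all genes tested. The 2 groups did not overlap for 12 members that were higher and 16 that were lower in EV, against 42.1% and 40.7% of all genes tested (82.8% in all). Because the samples are bulk RNA, fewer cells of a kind and less RNA per cell cannot be told apart. The changes were of unequal size. The log2 fold change of MED26 (middle) was 3.30 and that of CDK8 (kinase) 1.52. MED9 (middle) fell by 2.30, MED13 and MED13L (kinase) fell by 1.63 and 1.34, and MED7 (middle) and MED28 (head) fell by 1.05 and 1.01 on the log2 scale. These 2 rises and 5 falls were the called members whose log2 fold change reached 1, against 17.5% of all genes tested upward and 13.3% downward. The 8 members that did not pass had log2 fold changes between -0.20 and 0.23, and 9 called members also lay within 0.5 of 0.

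**Figure D1:**
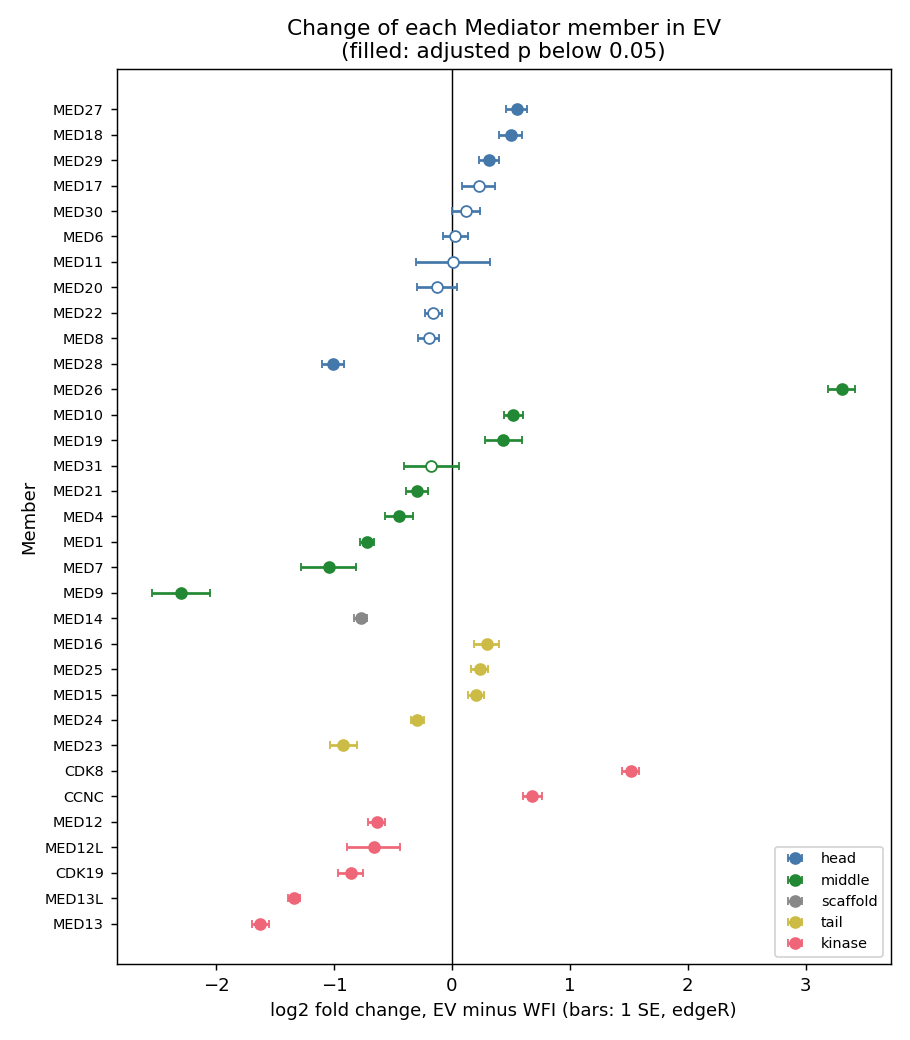
Log2 fold change of each Mediator gene, EV minus WFI (x axis), with the genes on the y axis grouped and coloured by module; bars are 1 SE from edgeR and filled points passed an adjusted p of 0.05. MED26 stands highest at 3.30 and MED9 lowest at -2.30, and 7 of the 11 head genes have open points.

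In the kinase module every one of the 7 genes was called, 2 higher (28.6%) and 5 lower (71.4%), with a median log2 fold change of -0.66. All 5 tail genes were called as well. Over all genes tested 66% were called, 34.5% higher and 31.5% lower. Of tested protein-coding genes with merged exons longer than 5330 bases, 48.8% were lower. By merged exons every kinase module gene except CDK8 is longer than that. CCNC has 5765 bases by merged exons but 2473 by its longest coding transcript. The enzyme genes moved apart. CDK8, the kinase itself (ENSG00000132964, chromosome 13, hg38 26254104 to 26405238, plus strand), had 33.9 and 38.0 CPM in the WFI samples and 105 and 100 CPM in the EV samples. Both EV samples were thus above both WFI samples. The rise was 2.86-fold (log2 fold change 1.52 with SE 0.07, adjusted p = 1.19e-08 in edgeR). CDK19, the paralog that can take its place (chromosome 6, 110609978 to 110815958, minus strand), had 29.3 and 27.8 CPM in WFI and 15.2 and 16.3 in EV. Here both EV samples were below both WFI samples (log2 fold change -0.86 with SE 0.11, adjusted p = 3.67e-05 in edgeR). CCNC, the cyclin that both kinases need (chromosome 6, 99542380 to 99568973, minus strand), followed CDK8 in direction. Its levels were 33.2 and 34.2 CPM in WFI and 56.5 and 51.9 in EV, a 1.61-fold rise (log2 fold change 0.68 with SE 0.08, adjusted p = 2.37e-05 in edgeR).

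The balance between the paralogous kinases was measured as the ratio of CDK8 to CDK19 CPM within each sample. It was 1.16 and 1.37 in WFI and 6.92 and 6.17 in EV, so the groups did not overlap and the ratio was 5.20 times higher in EV. An exact two-sided permutation test over the 4 samples gave p = 0.333, the smallest value that 2 samples against 2 allow. Per kilobase of spliced length, CDK8 made up 71.0% and 74.3% of the summed CDK8 and CDK19 level in WFI and 93.6% and 92.9% in EV. With the longest coding transcript as the length, these shares were 70.3%, 73.6%, 93.4% and 92.6%. The summed CPM of the pair was 63.2 and 65.8 in WFI and 121 and 117 in EV.

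The genes that activate and anchor the kinase fell. MED13, whose product links the kinase module to the core (chromosome 17, 61942605 to 62065282, minus strand), had 169 and 168 CPM in WFI and 59.5 and 49.7 in EV. This was a fall to 0.324 of the WFI level (log2 fold change -1.63 with SE 0.07, adjusted p = 6.93e-09 in edgeR). MED13L (chromosome 12, 115953872 to 116277719, minus strand) had 173 and 171 CPM in WFI and 65.1 and 70.8 in EV (log2 fold change -1.34 with SE 0.05, adjusted p = 3.21e-09 in edgeR). For both genes the EV samples lay far below the WFI samples, and the WFI replicates were nearly equal. MED12, which activates the kinase (X chromosome, 71118556 to 71142454, plus strand), had 62.8 and 67.0 CPM in WFI and 41.5 and 41.8 in EV (log2 fold change -0.64 with SE 0.07, adjusted p = 1.43e-05 in edgeR). MED12L had the lowest level per kilobase of all members in both groups, with 6.39 and 5.93 CPM in WFI and 4.07 and 3.72 in EV. Its log2 fold change of -0.66 (SE 0.23, adjusted p = 0.0232 in edgeR) lost its call without WFI replicate 1 (log2 fold change -0.64, edgeR adjusted p = 0.129) and without WFI replicate 2 (-0.75, 0.0675), with a fold of similar size. Each fit without a sample leaves 1 sample in a group, which is assumed to vary like the other group. IGSF10, on the opposite strand, shares 3634 exon bases with MED12L and fell by 2.12 on the log2 scale, and without the strand setting of the counting their reads cannot be told apart.

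The other paralog pairs were measured in the same way. The ratio of MED12 to MED12L was 9.83 and 11.3 in WFI and 10.2 and 11.3 in EV, with overlapping groups (exact two-sided permutation p = 1). The ratio of MED13 to MED13L was 0.974 and 0.986 in WFI and 0.914 and 0.702 in EV, lower in both EV samples and lowest in EV replicate 2 (exact two-sided permutation p = 0.333). Over the 4 MED12 and MED13 genes the summed level was 411 and 412 CPM in WFI and 170 and 166 in EV. The kinase module as a whole summed to 508 and 512 CPM in WFI and 347 and 335 CPM in EV. Its share of the summed level of all 33 members was 32.4% and 32.5% in WFI and 26.1% and 24.5% in EV (exact two-sided permutation p = 0.333).

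**Figure D2:**
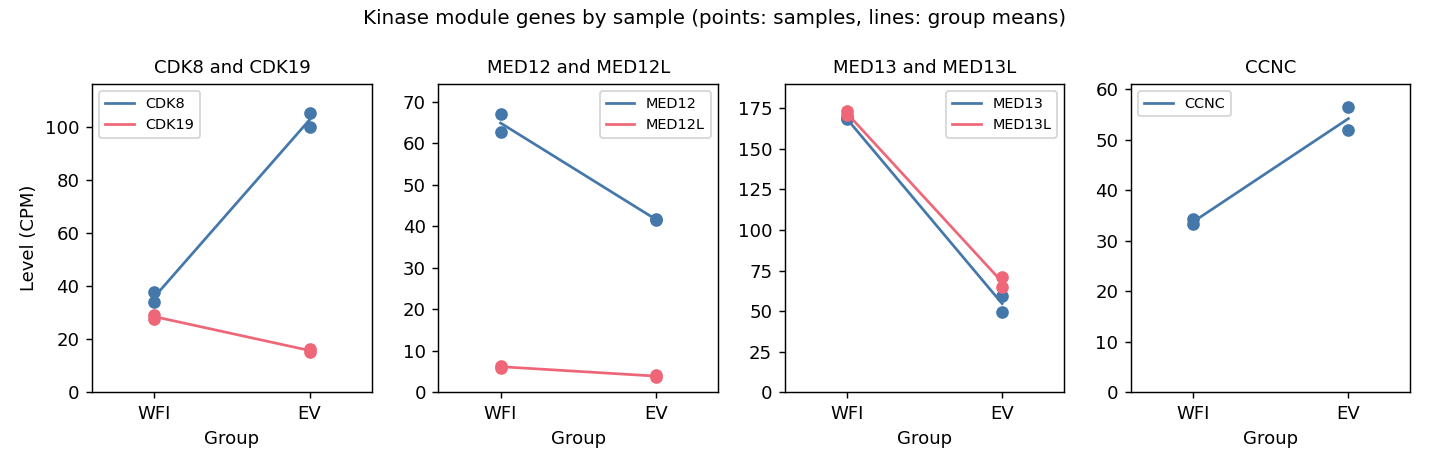
Levels (y axis, CPM from 0) of the kinase module genes in the WFI and EV groups (x axis); points are samples and lines join group means. CDK8 and CCNC are higher in both EV samples, while CDK19, MED12, MED12L, MED13 and MED13L are lower in both.

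In the middle module, 3 genes rose, 5 fell and 1 was not called, with a median log2 fold change of -0.30. The shares were 33.3% higher and 55.6% lower, against 34.5% and 31.5% of all genes tested. MED26, an elongation-linked subunit that joins Mediator forms able to bind the polymerase (chromosome 19, 16574907 to 16629062, minus strand), had 5.18 and 6.26 CPM in WFI and 55.6 and 57.5 in EV. Raw counts were 107 and 131 against 1011 and 1114. The rise was 9.87-fold (log2 fold change 3.30 with SE 0.12, adjusted p = 1.06e-09 in edgeR), larger than for 93.3% of all genes tested. Per kilobase of spliced length it ranked 31 of 33 in WFI (1.07 CPM per kb) and 11 of 33 in EV (10.6 CPM per kb). An antisense gene that shares 434 exon bases with MED26 had 23 and 20 counts in WFI and 57 and 54 in EV. Protein-coding genes on the same strand, with 0 counts in every sample, share 1448 and 705 exon bases with MED26. The count of MED26 is thus uncertain, as are its levels per kilobase.

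MED9, a small subunit of the middle module (chromosome 17, 17476986 to 17493226, plus strand), showed the opposite change. It had 16.7 and 21.5 CPM in WFI and 5.11 and 2.69 in EV, a 4.92-fold fall (log2 fold change -2.30 with SE 0.25, adjusted p = 1.02e-05 in edgeR). The EV samples were unequal, yet both lay below both WFI samples. MED7, which forms a hinge of the middle module with MED21, had 6.73 and 7.98 CPM in WFI and 3.08 and 4.03 in EV (log2 fold change -1.05 with SE 0.24, adjusted p = 0.00237 in edgeR). MED1, the main contact of nuclear receptors, had 117 and 109 CPM in WFI and 67.3 and 70.0 in EV (log2 fold change -0.72 with SE 0.06, adjusted p = 9.37e-07 in edgeR).

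The remaining middle genes moved less. MED4 fell from 20.8 and 21.2 to 14.5 and 16.4 CPM (log2 fold change -0.45). MED21 had a log2 fold change of -0.30, and its call ended with WFI replicate 2 left out (-0.25, edgeR adjusted p = 0.168) or EV replicate 1 left out (-0.27, 0.052). MED10, a small conserved subunit, rose from 34.2 and 34.0 to 49.1 and 48.9 CPM (log2 fold change 0.52 with SE 0.08). Replicates of MED10 were almost equal, whereas those of MED19 were not. MED19, a contact of the repressor REST, had 18.2 and 17.9 CPM in WFI and 28.9 and 19.99 in EV (log2 fold change 0.44), and its call was lost without EV replicate 1 (0.14, edgeR adjusted p = 0.272) and without WFI replicate 2 (0.39, edgeR adjusted p = 0.0626). MED31 did not pass (log2 fold change -0.17, edgeR adjusted p = 0.535); it shares 1227 exon bases with TXNDC17 on the opposite strand, so its count is uncertain. MED14, the scaffold (X chromosome, 40648306 to 40735858, minus strand), had 116 and 113 CPM in WFI and 66.1 and 67.5 in EV (log2 fold change -0.77 with SE 0.05, adjusted p = 2.84e-07 in edgeR).

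The promoters of 5 genes, chosen after their values were seen, are shown because MED26 and MED9 belong to one module, and CDK8 and CDK19 fill one position, yet each pair moved in opposite directions. MED13L is added for the genes that anchor the kinase. Each sequence is the 250 bases before the annotated start in RefSeq (GRCh38.p14, the same assembly as hg38), 5′ to 3′ on the gene's strand, with motif matches in capitals.
MED26 (chr19:16628205-16628454, minus): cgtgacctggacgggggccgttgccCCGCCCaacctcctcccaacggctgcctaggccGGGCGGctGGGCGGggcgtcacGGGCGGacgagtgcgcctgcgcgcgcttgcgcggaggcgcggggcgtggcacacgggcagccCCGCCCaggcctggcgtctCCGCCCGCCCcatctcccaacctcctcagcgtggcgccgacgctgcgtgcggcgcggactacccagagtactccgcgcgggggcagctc
MED9 (chr17:17476750-17476999, plus): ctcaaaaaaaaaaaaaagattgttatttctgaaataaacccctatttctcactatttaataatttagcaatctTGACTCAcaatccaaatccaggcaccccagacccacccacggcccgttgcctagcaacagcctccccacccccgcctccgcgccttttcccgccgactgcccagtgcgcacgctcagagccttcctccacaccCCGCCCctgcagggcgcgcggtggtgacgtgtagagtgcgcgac
CDK8 (chr13:26253879-26254128, plus): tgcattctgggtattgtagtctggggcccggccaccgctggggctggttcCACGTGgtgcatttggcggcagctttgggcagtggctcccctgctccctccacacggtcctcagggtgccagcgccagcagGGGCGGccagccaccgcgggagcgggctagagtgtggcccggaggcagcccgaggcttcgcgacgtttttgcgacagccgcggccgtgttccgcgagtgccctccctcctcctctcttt
CDK19 (chr6:110815856-110816105, minus): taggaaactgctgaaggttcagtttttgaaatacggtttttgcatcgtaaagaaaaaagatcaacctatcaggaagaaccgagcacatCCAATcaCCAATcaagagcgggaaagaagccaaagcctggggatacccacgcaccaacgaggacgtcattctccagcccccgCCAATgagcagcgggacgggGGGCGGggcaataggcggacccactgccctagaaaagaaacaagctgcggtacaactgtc
MED13L (chr12:116277694-116277943, minus): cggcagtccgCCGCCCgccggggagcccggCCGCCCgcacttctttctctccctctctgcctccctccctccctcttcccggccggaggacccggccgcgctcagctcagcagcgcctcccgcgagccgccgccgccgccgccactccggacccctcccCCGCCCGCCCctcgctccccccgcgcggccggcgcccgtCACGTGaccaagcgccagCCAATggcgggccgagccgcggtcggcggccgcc
Capitals mark matches on either strand to the GC box GGGCGG, the CCAAT box CCAAT, the E-box CACGTG or the AP-1 site TGANTCA, where neighbouring GC boxes may overlap. The MED26 window is 78% G and C and holds GC boxes as its only kind of match. CDK8 has a GC box and an E-box, CDK19 has CCAAT boxes and a GC box, MED13L has GC boxes, an E-box and a CCAAT box, and MED9 has an AP-1 site and a GC box.

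Promoters of 25 members were matched in the RefSeq table, and the same search was run on all 35114 promoters in it. A GC box was found in 15 of the 25 (60%), against 42.6% of all promoters. It was present in 8 of the 11 members that rose and 5 of the 10 matched members that fell. A CCAAT box was found in 10 of 25 (40%, against 32%), in 4 of the members that rose and 6 of those that fell. The ETS site CCGGAAG was found in 5 (20%, against 8.52%), and the E-box, the AP-1 site and the TATA box TATAAA in 2 each (8%, against 6.35%, 6.57% and 10.7%). The CRE TGACGTCA and the NRF1 consensus were found in 1 member each, MED18 in both cases (4%, against 1.65% and 1.03%). The median G and C content of member promoters was 58%, equal to that of all promoters in the table. A match describes letters in this window and is not evidence of a bound factor, and the lack of one says nothing about the factor.

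The head module, which contacts the polymerase and TFIID, had the fewest calls for its size, 27.3% higher and 9.09% lower. Over all genes tested these shares were 34.5% and 31.5%. Of its 11 genes, 3 rose, 1 fell and 7 were not called, and the median log2 fold change was 0.03, a sign that turned under several alternatives, down to -0.27 with a correction for gene length and G and C content in its planned form. MED28 was the gene that fell, from 49.2 and 49.95 CPM in WFI to 26.6 and 22.7 in EV (log2 fold change -1.01 with SE 0.10, adjusted p = 3.88e-06 in edgeR). MED27 rose from 32.3 and 29.9 to 47.8 and 43.4 CPM (log2 fold change 0.55 with SE 0.09, adjusted p = 0.000285 in edgeR). MED18, which pairs with MED20 in a movable part of the head, rose from 21.6 and 23.3 to 31.3 and 32.0 CPM (log2 fold change 0.50 with SE 0.10, adjusted p = 0.00105 in edgeR). Its partner MED20 had overlapping groups (log2 fold change -0.13 with SE 0.17). MED29 had 38.4 and 41.8 CPM in WFI and 47.5 and 52.1 in EV (log2 fold change 0.31, edgeR adjusted p = 0.00715), and its call was lost without WFI replicate 1 (0.22, edgeR adjusted p = 0.154).

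The other head genes had small differences. MED17, the central head subunit, had 11.7 and 10.9 CPM in WFI and 13.8 and 12.6 in EV (log2 fold change 0.23 with SE 0.14, adjusted p = 0.176 in edgeR). TAF1D, on the opposite strand, shares 88 exon bases with MED17 and went from 2199 and 2248 to 5127 and 5640 counts. A gene on the same strand with 0 counts shares 2156 exon bases with it. The count of MED17 is thus uncertain. MED6 (0.03), MED11 (0.01) and MED30 (0.12) had log2 fold changes near 0 and overlapping groups, and MED11, at 2.32 to 3.01 CPM, had an SE of 0.31. MED8 and MED22 were lower in both EV samples (log2 fold changes -0.20 and -0.16) with edgeR adjusted p of 0.0709 and 0.0796. MED8 had a log2 fold change of -0.28 without EV replicate 2, and MED22 one of -0.214 without EV replicate 1. Both passed with no count filter (edgeR adjusted p = 0.019 and 0.0162), where the median shift over all genes tested was -0.0764. MED8-AS1, an antisense gene that shares 139 exon bases with MED8, went from 21 and 17 counts in WFI to 0 and 1 in EV (edgeR adjusted p = 0.00137). It passed the count filter through the WFI samples only, so a call of higher was not open to it.

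In the tail module, 3 genes rose (60%) and 2 fell (40%), against 34.5% and 31.5% of all genes tested. The median log2 fold change was 0.20 and turned to -0.17 with the same correction. MED23, a contact of the factor ELK1 (chromosome 6, 131573966 to 131628229, minus strand), had 35.4 and 35.9 CPM in WFI and 16.9 and 20.7 in EV (log2 fold change -0.92 with SE 0.11, adjusted p = 3.19e-05 in edgeR). MED24 fell from 124 and 126 to 96.4 and 107 CPM (log2 fold change -0.29 with SE 0.06, adjusted p = 0.00106 in edgeR). MED15, a contact of SREBP and SMAD factors, had 132 and 134 CPM in WFI and 141 and 165 in EV (log2 fold change 0.20). MED16 and MED25, the latter a contact of ETV factors, had log2 fold changes of 0.29 and 0.24. These 3 rises were small, and all lost their call with no count filter (edgeR adjusted p = 0.103, 0.0915 and 0.102) and without some single samples. With no count filter, log2 fold changes over all genes tested shifted by a median of -0.0764. MED15 was lost without WFI replicate 1 (log2 fold change 0.155, edgeR adjusted p = 0.094) and shrank to 0.07 without EV replicate 2 (0.163). MED16 kept its size without WFI replicate 1 (0.31, edgeR adjusted p = 0.0653), and was 0.22 without WFI replicate 2 (0.198) and 0.12 without EV replicate 2 (0.24). MED25 was 0.19 without WFI replicate 1 (edgeR adjusted p = 0.166), 0.22 without WFI replicate 2 (0.112) and 0.15 without EV replicate 2 (0.0683).

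Levels were also summed over the members of each core module. The head genes totalled 301 and 307 CPM in WFI and 308 and 302 in EV, the middle genes 259 and 262 against 257 and 255, and the tail genes 381 and 385 against 354 and 407. Within the middle sum MED26 gained while MED1 lost. All 33 members together summed to 1565 and 1578 CPM in WFI and 1332 and 1366 CPM in EV, a ratio of 0.858 (exact two-sided permutation p = 0.333). Per kilobase of spliced length, MED10 (18.2), MED24 (17.9) and MED1 (15.4 CPM per kb) ranked highest in WFI. In EV the order was CDK8 (29.1), MED10 (26.1) and MED27 (21.6 CPM per kb). With the longest coding transcript as the length, MED15 ranked first in both groups (39.7 and 45.7 CPM per kb), and CDK8 moved from rank 15 to rank 3. MED12L ranked last in both groups by either length.

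**Figure D3:**
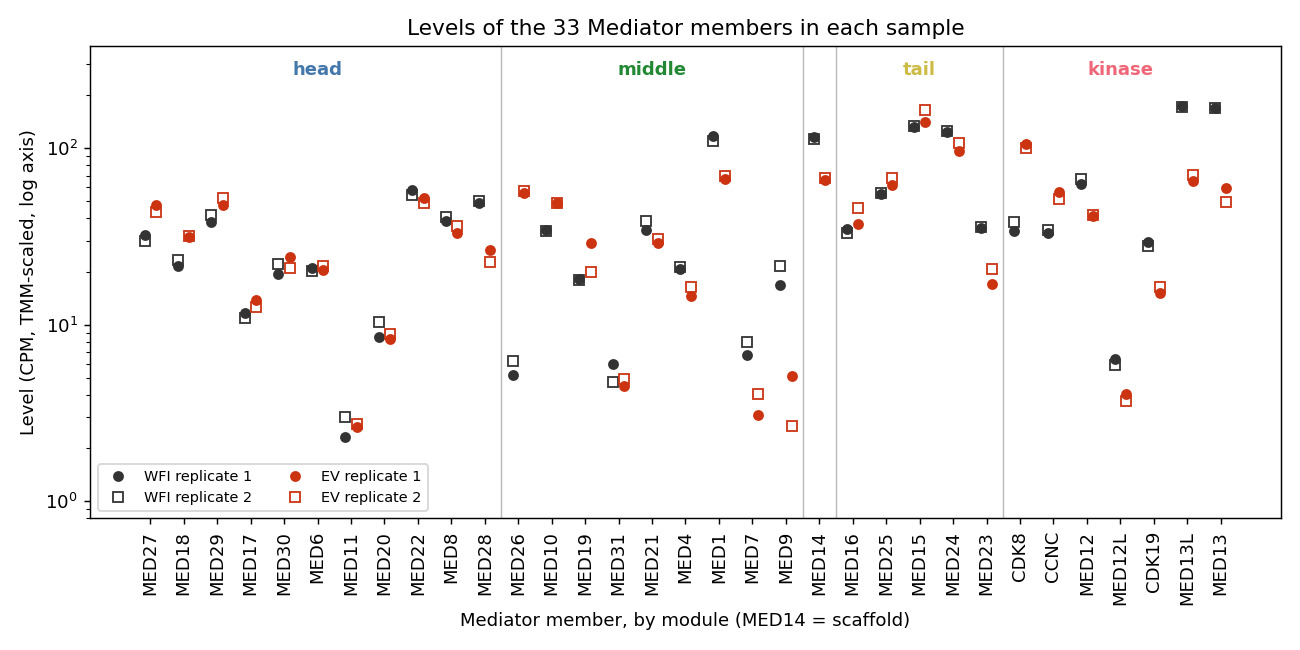
Level of each Mediator gene (x axis, by module) in each of the 4 samples (y axis, CPM on a log axis); black symbols are WFI and red symbols EV, with filled circles for replicate 1 and open squares for replicate 2. MED26 and CDK8 rise clear of the WFI samples, MED13, MED13L and MED9 fall clear of them, and replicates lie closer to each other than to the other group for these genes.

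Longer members tended to have lower log2 fold changes, as longer genes did across the table. Across the 33 members, log2 fold change and spliced length had a Spearman rho of -0.46, against -0.33 over 13554 tested protein-coding genes. These are genes measured in the same libraries and not independent replicates. Among the 17 members of up to 5330 bases, 8 rose and 3 fell (median log2 fold change 0.12), where 46.4% of protein-coding genes of such length rose and 21.6% fell. Among the 16 longer members, 3 rose and 11 fell (median -0.69), where 24.7% of protein-coding genes rose and 48.8% fell. By merged exons the kinase and tail genes are long, with median spliced lengths of 7492 and 7412 bases, and the head and middle genes shorter (3278 and 2913 bases). By longest coding transcript the medians were 6977 (kinase), 3420 (tail), 1995 (head) and 2022 bases (middle).

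A correction for spliced length and G and C content was fitted in each sample, in 2 forms. The planned form lowered the log2 fold changes of all genes tested by a median of 0.196, and with it 6 members were called higher and 14 lower. A second form, centred so that it removes no shift common to all genes, was added after the results of the first had been seen, and gave 7 higher and 12 lower. The largest changes kept their call in both forms. MED26 had log2 fold changes of 2.97 (planned) and 3.14 (centred), CDK8 1.30 and 1.48, CCNC 0.85 and 1.02, MED9 -2.54 and -2.37, and MED7 -1.16 and -0.98. Several falls of long genes became smaller but stayed called in both. MED13 had -1.06 and -0.89, MED13L -0.90 and -0.73, MED14 -0.42 and -0.24, CDK19 -0.67 and -0.49, MED28 -0.67 and -0.50 and MED23 -0.70 and -0.53. CDK19, MED13 and MED13L thus still moved opposite to CDK8 and CCNC in either form.

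Of the 11 rises, 5 kept their call in the planned form and 6 in the centred form. MED18, MED27, MED29, MED19 and MED16 lost theirs in both, and MED29, MED19 and MED16 changed sign in the planned form (-0.10, -0.10 and -0.17). MED10 lost its call in the planned form (0.14, adjusted p = 0.132 in edgeR) and kept it in the centred form (0.32, 0.00375). Of the 14 falls, 12 kept their call in the planned form and 11 in the centred form. MED21 and MED12L lost theirs in both, and MED4 in the centred form (adjusted p = 0.0807 in edgeR). MED17 became called higher (0.71 and 0.88) and MED8 lower (-0.59 and -0.42) in both, and MED22 lower in the planned form (-0.28). The merged exons of MED17 span 16610 bases against 5142 for its longest coding transcript, so its correction rests on a length that its transcripts may not have. The same limit holds for other members. Among them are MED13L (37364 against 14615), MED15 (10374 against 3351), MED25 (7687 against 2396) and MED9 (5998 against 2228).

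**Figure D4:**
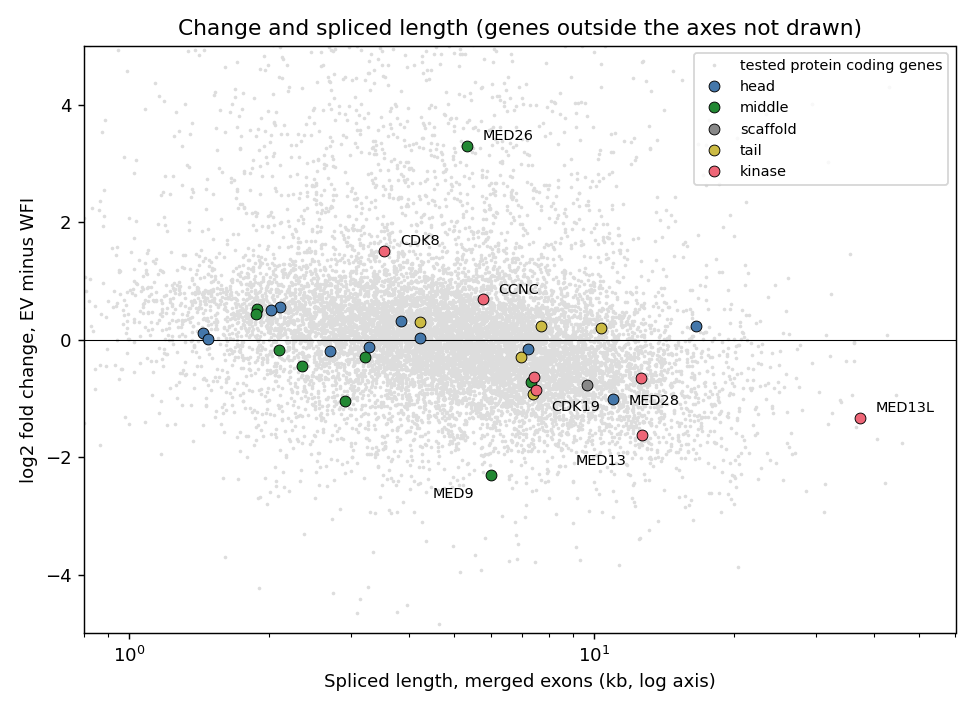
Log2 fold change, EV minus WFI (y axis), against spliced length in kilobases (x axis, log scale) for tested protein-coding genes (grey) and Mediator genes (coloured by module). The long kinase genes MED13 and MED13L lie at -1.63 and -1.34, MED26, CDK8 and CCNC at 3.30, 1.52 and 0.68, and MED9 at -2.30.

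The transcription machinery that Mediator serves was measured in the same fit, through lists compiled from textbook membership. The lists below are set against all genes tested, of which 34.5% were called higher and 31.5% lower. Of the 12 RNA polymerase II subunit genes, 11 rose (91.7%) and 1 fell (8.33%), with a median log2 fold change of 0.75. POLR2A, which encodes the catalytic subunit whose tail binds Mediator, had 469 and 455 CPM in WFI and 3037 and 3050 in EV, a 6.59-fold rise (log2 fold change 2.72 with SE 0.03, adjusted p = 6.69e-14 in edgeR). POLR2B and POLR2E, further subunits, had rises of 0.91 and 0.63 on the log2 scale. POLR2D was the subunit gene that fell (-0.38, edgeR adjusted p = 0.00529), and this call was lost without WFI replicate 2. With the length correction in its planned form, 8 subunit genes were higher and 2 lower. In its centred form 10 were higher and 1 lower. Of the 18 genes for general transcription factors, 17 were tested, with 8 higher (47.1%), 3 lower (17.6%) and 6 not called (median 0.15). GTF2B, which bridges the promoter and the polymerase, rose from 18.2 and 19.7 to 169 and 158 CPM (log2 fold change 3.11 with SE 0.07, adjusted p = 2.22e-11 in edgeR). GTF2H1 and GTF2A2 rose by 0.67 and 0.60, and GTF2E1 (-0.50), GTF2A1 (-0.29) and CCNH (-0.28) fell. GTF2H4 is listed at 0 in every sample.

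Of the 15 TFIID genes for TBP-associated factors, 14 were tested, with 7 higher, 5 lower and 2 not called (median 0.29). These shares, 50% higher and 35.7% lower, stand beside 34.5% and 31.5% over all genes tested. TAF13 rose from 83.8 ± 4.99 to 191 ± 1.51 CPM (SD, n = 2; log2 fold change 1.19), TAF6 rose by 0.58 and TAF1 fell by 0.95 on the log2 scale. Without WFI replicate 2 the count of lower TFIID genes was 3. Of 24 activators and partners known to bind a Mediator subunit, 23 were tested, with 7 higher (30.4%), 14 lower (60.9%) and 2 not called (median -0.37). SMAD3, a MED15 partner, fell from 233 ± 3.75 to 70.8 ± 3.31 CPM (-1.72, edgeR adjusted p = 1.93e-10), and RXRA, a partner of the nuclear receptors that bind MED1, fell by 0.85 on the log2 scale. With the length and G and C correction this list had 7 higher and 9 lower in the planned form and 12 higher and 9 lower in the centred form.

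The elongation factors recruited through MED26 were looked at after their values were seen. EAF2 rose with MED26, from 1.71 ± 0.118 to 12.2 ± 0.741 CPM (log2 fold change 2.84 with SE 0.21, adjusted p = 5.49e-07 in edgeR), and EAF1 by a log2 fold change of 0.75. ELL, the factor that EAF1 and EAF2 bind, fell from 41.1 ± 3.30 to 10.9 ± 0.479 CPM (log2 fold change -1.92 with SE 0.11, adjusted p = 6.84e-08 in edgeR), and AFF4, the scaffold of the super elongation complex, fell by 0.48. FBXW7, part of the ligase that marks MED13 and MED13L for degradation, had 15.0 ± 0.204 CPM in WFI and 11.9 ± 0.862 in EV (-0.33, SE 0.13, edgeR adjusted p = 0.0433). NIPBL, the cohesin loader and a partner of Mediator, fell by 1.05 on the log2 scale.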

How the data were processed

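Values are whole-number counts per gene that the authors deposited without normalization, with 1 column for each of the 4 samples per the file headers. Per the submitters' processing notes the build was hg38. For the aligner, counter, strand mode and annotation, nothing is given in the sources used here. Gene types, positions, spliced lengths (merged exons) and G and C content (longest coding transcript) came from GENCODE 29 on that build, which held 17073 of the 17465 genes tested. Symbols were matched for 61757 of 61860 identifiers. The mitochondrial genes of the table had no count.

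Counts were tested with edgeR 4.0.16 in R 4.3.3 (TMM, filterByExpr, quasi-likelihood test, group as the only term, Benjamini-Hochberg over all genes tested, called below 0.05). The SE is the size of the log2 fold change over the square root of F. Sums and ratios were compared by exact permutation over samples. The procedure was tested on simulated counts. It recovered 78% of simulated log2 changes of 0.5 and 96% of those of 1, and 4.59% of its calls were false. Those counts had the same spread in both groups, unlike the data, so these rates need not hold here. Chi-square per degree of freedom between replicates was 2.20 in WFI and 4.58 in EV, above counting noise. Alternatives were DESeq2 1.42.0, 2 further scalings (RLE, upper quartile), 2 further count filters (any count, or 50 in 2 samples), a block on the replicate number, omission of single samples, a log2 fold change of at least 1, another module assignment, another length, and a correction by splines of 5 degrees of freedom for length and G and C content. That correction was run as planned, and its results were seen. It was then run again with each sample's correction centred at 0, a choice made after seeing the data, and both are reported.

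Members, modules and lists were chosen with earlier results of these data known. The rule for named genes took all 33 members, NECTIN4, and from each list of transcription machinery or partners the 3 called genes with the smallest adjusted p and the members of any direction with 3 or fewer calls. Printed promoters, searched motifs and other named genes were chosen after their values were seen. Some genes of these lists are not reported here.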

Additional observations from a re-analysis of the deposited data

How the results depend on the processing

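Of the member calls, 3 of 11 rises (MED26, CDK8 and CCNC) and 11 of 14 falls (all but MED4, MED21 and MED12L) were kept in all 12 refits. DESeq2, both other scalings and the filter of 50 counts kept all 11 rises and 14 falls. A block on the replicate number gave 11 and 14 members too, and 5957 higher and 5573 lower genes in all. The labels do not say what the numbers share, and deviations of same-numbered samples correlated at 0.0159 across genes. Members called higher were 6 with the planned length and GC correction, 7 with its centred form (added after the planned form was seen), 2 at a log2 fold change of at least 1 and 7 to 10 without single samples. Members called lower were 5 at that fold. At that fold 3063 genes were higher and 2322 lower, and the lists had 3 higher and 0 lower (general factors), 2 and 0 (TFIID), 3 and 0 (polymerase), 2 and 4 (partners) and 5 higher (epithelial markers). The planned correction gave 8 higher and 2 lower polymerase genes and 9 lower partners. The centred form gave 10 higher polymerase genes, and 12 higher and 9 lower partners. Without single samples, lower TFIID genes were 3 to 5, lower polymerase genes 0 to 1, higher fibroblast markers 1 to 3, lower fibroblast markers 0 to 1 and lower epithelial markers 0 to 1. With no count filter 2 fibroblast markers were higher, and with the filter of 50 counts 0 were, with 0 epithelial markers lower. In the main fit 1 of the 3 tested fibroblast markers was higher, against 34.5% of all genes tested. That marker, FAP, passed the count filter through the EV samples only.

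The head median was -0.0465 with no count filter, -0.266 with the planned and -0.0919 with the centred correction, and -0.0283 to 0.139 without single samples. The middle median was -0.373 with no count filter, -0.429 with the planned correction, -0.371 with MED14 counted in it and -0.404 to -0.269 without single samples. The tail median was -0.168 with the planned and 0.00582 with the centred correction, and 0.0734 to 0.291 without single samples. The kinase median was -0.606 with upper quartile scaling, -0.738 with no count filter, -0.491 with the centred correction and -0.747 to -0.66 without single samples. The log2 difference of the head sum was -0.000479 with MED27 to MED30 counted in the tail and -0.00943 to 0.018 without single samples. That of the middle sum was 0.032 with upper quartile scaling. That of the tail sum was 0.00701 with RLE, 0.0438 with upper quartile scaling and -0.113 to 0.088 without single samples. The log2 change of the MED12 to MED12L ratio was -0.0777 to 0.125 without single samples. Signs of 6 members changed, none of them to a call in the other direction. MED6 was -0.0465 with no count filter and -0.0354 to 0.0616 without single samples. MED11 was -0.00947 with DESeq2, -0.0655 with no count filter, -0.592 with the planned and -0.418 with the centred correction, and -0.195 to 0.177 without single samples. MED30 was -0.266 with the planned and -0.0919 with the centred correction, and -0.00707 to 0.206 without single samples. With the planned correction MED29 was -0.105, MED19 -0.103 and MED16 -0.168. Over all genes tested, log2 fold changes shifted from the main fit by a median of -0.0764 with no count filter. The median shift was 0.0193 with RLE and 0.056 with upper quartile scaling. The cause of the changes of sign was not tested. The exact permutation test cannot go below 0.333 with 2 samples a group, and low counts limit MED11, MED31, MED12L and MED7.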

Other observations

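Antisense genes named after Mediator members were not members themselves. MED14OS, antisense to MED14, had 24 and 16 counts in WFI and 12 and 6 in EV (adjusted p = 0.172 in edgeR). TXNDC17, on the strand opposite MED31, rose by 0.96 on the log2 scale (adjusted p = 1.12e-06 in edgeR), whereas MED31 was not called.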
